A study of Mus musculus with 19 samples.

Results

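Calcium channels, pumps and exchangers were examined as a set of 44 genes among the 41128 gene identifiers of the count table. A member was any row whose gene name in the GENCODE M21 mouse annotation stood on a list of voltage-gated calcium channel subunits, calcium release channels, calcium pumps, calcium exchangers, store-operated entry proteins and the mitochondrial uniporter, so that membership was set by name. The RNA-seq libraries came from cerebellum (CB), from striatum (STR) and from prefrontal cortex (PFC), taken from germline SCA17 knock-in (KI) mice and wild-type (WT) mice, all C57BL/6 and 3 months of age, with 4 KI and 3 WT libraries from CB and 3 of each from STR and from PFC. In KI mice the polyglutamine stretch of the transcription factor gene Tbp is lengthened. The germline allele came from a cross of floxed knock-in mice with EIIa-Cre mice, so that every cell type can express it. WT mice were age-matched, no treatment was given, and mice of both sexes were used in the study without the labels giving the sex of each. Sex inferred from Xist against Y-linked counts was not balanced between genotypes. Xist was the higher in 2 of 3 WT and 1 of 3 KI libraries in STR, and likewise in PFC. In CB it was the higher in 2 of 3 WT and 2 of 4 KI libraries.

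Neurons keep free cytosolic calcium far below the level outside the cell and inside the endoplasmic reticulum, and they signal by brief openings of channels in both membranes. A voltage-gated calcium channel has a pore-forming α1 subunit, which sets the current type, a cytoplasmic β subunit and an α2δ subunit, both of which promote its delivery to the surface. Ryanodine and IP3 receptors release calcium from the endoplasmic reticulum, SERCA pumps return it there, and PMCA pumps and sodium-coupled exchangers move it out of the cell. Purkinje cells of the cerebellum are known for P/Q-type current carried by Cacna1a, and dominant ataxias are caused by changes in several genes of this machinery.

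Of the 44 genes, 43 had enough counts to be tested; Cacng8, a TARP that escorts AMPA receptors, had 48 counts in all 19 libraries together. Levels are given as CPM, counts scaled to a library of 1000000, and levels are compared between genes only per kilobase of exon. Library totals lay between 10639110 and 17431284 counts, so a gene at 1 CPM rested on few reads. Tbp itself was not called in any region (log2 fold change, KI against WT, -0.15, -0.12 and -0.15 in CB, STR and PFC); the count table does not separate alleles. Some libraries stood apart by the RNA of neighbouring tissue: Ttr, which marks choroid plexus, reached 1818 and 4547 CPM in CB WT 1 and CB KI 3 against at most 12.2 CPM in the other CB libraries. It lay between 1434 and 8275 CPM in all STR libraries. The olfactory bulb gene Eomes was at 29.99 CPM in PFC WT 3 and at most 0.41 CPM in the other PFC libraries. Markers of striatal medium spiny neurons (8 genes) summed to 783.8, 647.1 and 921.1 CPM in PFC WT 3, KI 1 and KI 2. In the other PFC libraries they summed to between 206.3 and 324.5 CPM. Markers of cortical excitatory neurons (6 genes) summed to between 16.35 and 226.7 CPM in WT STR and between 67.22 and 153.9 CPM in KI STR. The part of these differences in the values of the members was not tested. The samples are bulk tissue, in which fewer cells of a type and less RNA per cell cannot be told apart.

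In WT mice the set was led by its pumps. Per kilobase, Atp2a2 (SERCA2, which refills the endoplasmic reticulum) had the highest level of all members in CB, at 154.2 CPM per kb, and 119.4 and 98.5 CPM per kb in STR and PFC, and Atp2b2 (PMCA2, a plasma membrane pump) stood at 97.5, 105.3 and 100.8 CPM per kb. At the other end, Cacng8 and Cacng7 lay below 1 CPM per kb in every region. Between regions, 17 of the 43 tested members were higher and 18 lower in WT CB than in WT STR (adjusted p under 0.05), where 56.5% of all tested genes were called (27.8% higher and 28.7% lower). The corresponding counts were 14 and 13 for CB against PFC, with 52% of all genes called (25.1% and 26.9%), and 13 and 9 for STR against PFC, with 30.5% called (14% and 16.4%). Without CB WT 1, CB KI 3 and PFC WT 3 these counts were 16 and 17, 15 and 13, and 11 and 10.

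**Figure D1:**
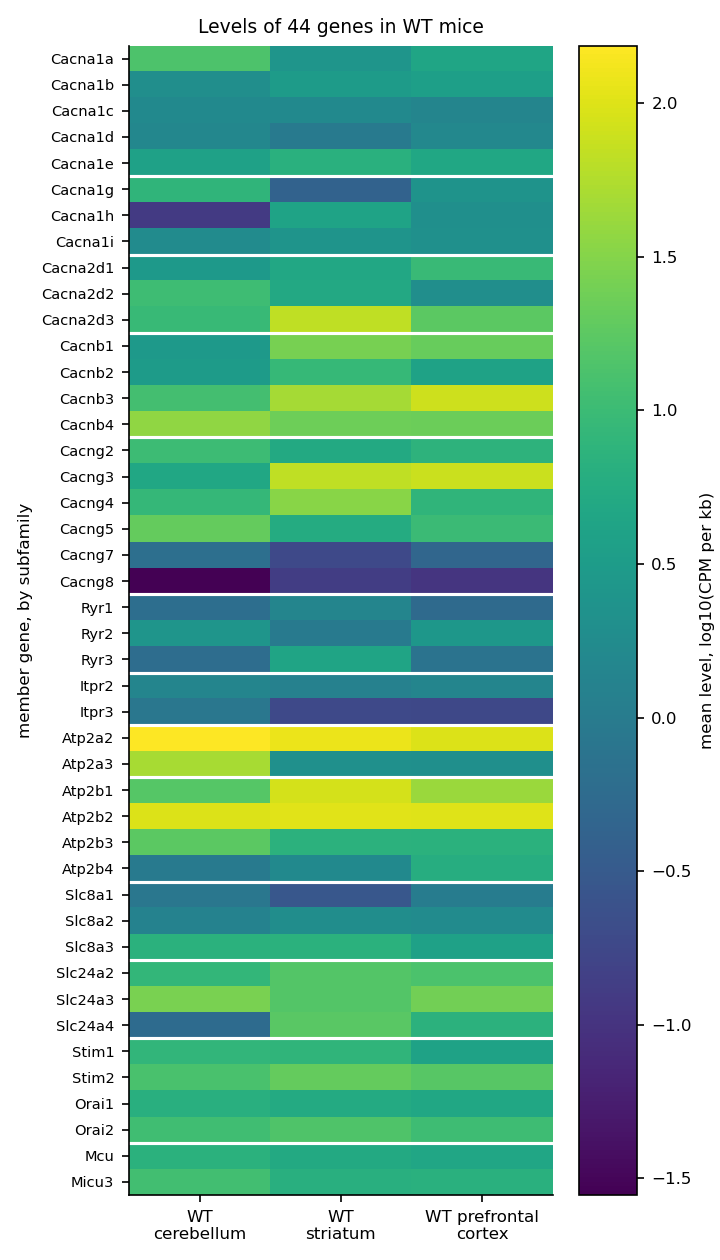
Mean level of each of the 44 genes in WT mice (3 libraries per region) as log10 of CPM per kb, genes ordered by subfamily with white lines between subfamilies. Atp2a2 and Atp2b2 are the brightest rows in every column, and Cacna1g, Cacna1h, Atp2a3 and Slc24a4 differ most in shade between regions.

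The pore subunits differed in kind between regions. Cacna1a (P/Q-type) was at 136.2, 167.8 and 170.2 CPM in the WT CB libraries, at 27.1 to 31.3 CPM in STR and at 39.2 to 59.0 CPM in PFC, with no overlap between CB and either forebrain region. Its log2 difference was 2.46 ± 0.17 (SE) from STR and 1.65 ± 0.16 from PFC (adjusted p = 2.17e-09 and 2.45e-07). Cacna1a held 60.6% ± 0.4 (SD, n = 3) of the per-kilobase level of the 5 high-voltage pore genes in WT CB. In WT STR the R-type gene Cacna1e held the largest part, at 44.2%. In WT PFC Cacna1e (30.0% ± 2.4, SD, n = 3) and Cacna1a (27.9% ± 5.0) were close, with overlapping ranges.

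Among the T-type (low-voltage) pores, which open near the resting potential, Cacna1g was at 69.9, 88.3 and 76.9 CPM in WT CB against 1.93 to 6.95 CPM in WT STR. Cacna1h had the opposite order, at 1.05 to 1.29 CPM in WT CB and 36.3 to 43.7 CPM in WT STR. PFC held both, at 19.6 to 29.3 CPM for Cacna1g and 16.7 to 25.8 CPM for Cacna1h. Cacna1g therefore made up 79.9% of the T-type level per kilobase in WT CB and Cacna1h 59.8% in WT STR. Cacna1b (N-type), Cacna1c and Cacna1d (L-type) and Cacna1i (T-type) differed by less than 1 log2 unit between regions. Cacna1b was highest in PFC (36.1 ± 0.3 CPM, SD, n = 3), with a log2 difference of -0.88 ± 0.19 for CB against PFC, but was not distinguished there from STR (31.1 ± 2.7 CPM, adjusted p = 0.412). Cacna1c did not pass the test in any of the 3 regional comparisons (adjusted p = 0.976, 0.417 and 0.47).

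The auxiliary subunits were divided in the same manner. Cacna2d3 (α2δ-3) was at 552.7, 592.9 and 615.2 CPM in WT STR, against 77.2 to 83.1 CPM in WT CB and 129.0 to 170.1 CPM in WT PFC. It held 87.1% of the α2δ level per kilobase in STR. Cacna2d2, an α2δ gene whose loss causes ataxia in mice, was highest in CB (log2 difference 1.06 ± 0.13 from STR and 2.45 ± 0.14 from PFC). Cacna2d1, the gabapentin-binding α2δ-1, was highest in PFC (log2 difference -1.70 ± 0.10 for CB against PFC and -0.99 ± 0.10 for STR against PFC). Of the β subunits, Cacnb4 held 67.9% of the level per kilobase in CB and Cacnb3 held 45.1% in STR and 63.5% in PFC. Cacnb2 was highest in STR, at 103.8 to 130.7 CPM, against 38.4 to 45.9 CPM in CB and 50.1 to 56.1 CPM in PFC. For the γ subunits and TARPs, Cacng5 led in CB with 45.8% and Cacng3 in STR and PFC with 60.8% and 74.8%. Cacng4 was highest in STR (104.1 to 126.1 CPM, against 15.6 to 40.8 CPM in CB and 23.5 to 34.4 CPM in PFC).

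**Figure D2:**
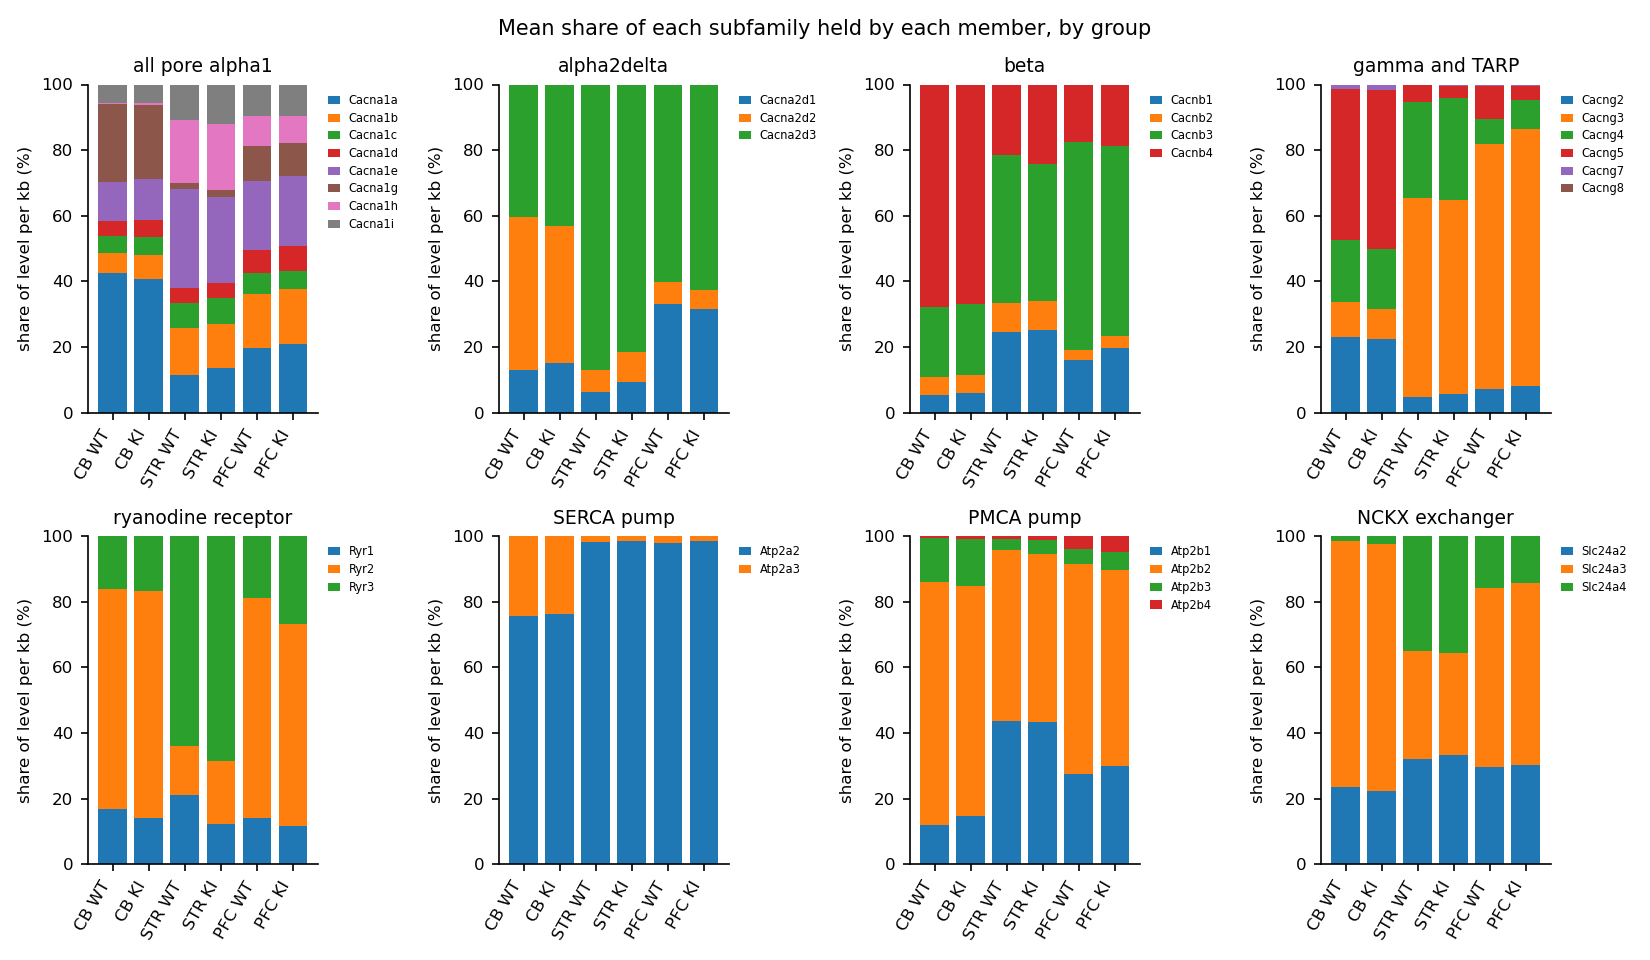
Mean share, in percent, of the summed level per kb of each subfamily held by each of its members, in the 6 groups (bars; 3 libraries each, 4 for CB KI). Of the 8 subfamilies plotted, the SERCA and PMCA pumps have the same leading member in all WT groups and the other 6 do not, as in the β panel (Cacnb4 67.9% in CB WT and 21.5% in STR WT). Some leads are narrow. In the NCKX panel STR WT has Slc24a4 at 35.12%, Slc24a3 at 32.73% and Slc24a2 at 32.15%. In the pore panel PFC WT has Cacna1e at 21.26% and Cacna1a at 19.85%. In CB WT the leading α2δ gene is Cacna2d2 (46.5%, against 40.4% for Cacna2d3). In CB KI no leader stands out. Cacna2d3 holds 43.2% (40.79% to 46.3%) and Cacna2d2 41.6% (40.15% to 42.81%), with overlapping ranges. Neither gene was called in CB.

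The release channels of the endoplasmic reticulum also differed by region. Ryr3 was at 65.6, 87.2 and 90.5 CPM in WT STR and at 10.0 to 16.7 CPM in WT CB and PFC. It held 64.1% of the ryanodine receptor level per kilobase in STR, whereas Ryr2 held 66.7% in CB and 67.2% in PFC. The kit does not mark strand and Ryr3 shares 916 bp of exon with the oppositely oriented gene Aven (4079 counts over all libraries, against 9293 for Ryr3), so a part of its count cannot be assigned. Ryr1, the skeletal muscle type receptor, was at 21.8, 37.1 and 32.4 CPM in WT STR and at most 15.2 CPM in any other WT library. Itpr2, with 87.0% and 88.5% of the level of the 2 IP3 receptor genes of the set in STR and PFC and 62.9% in CB, did not pass the test between regions (adjusted p between 0.233 and 0.994). These shares leave out the IP3 receptor gene Itpr1, which is not in the set. Itpr1 was at 822.7 to 873.7 CPM in WT CB, 345.9 to 452.2 CPM in WT STR and 195.5 to 250.4 CPM in WT PFC. Itpr3 was higher in CB by 2.18 ± 0.34 and 2.21 ± 0.34 on the log2 scale than in STR and PFC.

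The SERCA pumps set CB apart. Atp2a3 (SERCA3) was at 263.2, 276.0 and 249.5 CPM in WT CB, against 10.7 to 11.6 CPM in WT STR and 8.49 to 15.1 CPM in WT PFC (log2 difference 4.55 ± 0.26 and 4.60 ± 0.26, adjusted p = 1.94e-10 and 2.25e-10). Atp2a2 held 75.5% in CB and 98.2% and 97.8% in STR and PFC. Atp2b3 (PMCA3) was likewise highest in CB, by 1.31 ± 0.14 over STR. Atp2b1 (PMCA1) was highest in STR, at 1250, 1380 and 1388 CPM against 230.1 to 257.6 CPM in CB. Atp2b4 (PMCA4) was highest in PFC, at 45.3 to 98.1 CPM. Atp2b2 was the leading PMCA in all 3 regions, and its levels in WT mice were not distinguished by region (adjusted p = 0.559, 0.814 and 0.808).

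Of the exchangers that also carry potassium, Slc24a3 held 74.9% of the level in CB and 54.5% in PFC. Slc24a4 was at 1.46, 1.70 and 4.50 CPM in WT CB, 69.4 to 81.4 CPM in WT STR and 28.4 to 34.1 CPM in WT PFC. Slc8a3 led the sodium-calcium exchangers per kilobase everywhere, with 76.3%, 75.6% and 56.5% of the level in CB, STR and PFC. In WT PFC its lead over Slc8a1 came with the division by length. Before it, Slc8a3 was at 20.4 CPM and Slc8a1 at 19.7 CPM, with 5332 and 18807 bp of annotated exon. Slc8a1, the cardiac type exchanger, was lowest in STR (log2 difference 1.56 ± 0.30 for CB against STR and -1.86 ± 0.30 for STR against PFC), and its level in PFC was not distinguished from CB (adjusted p = 0.379). The store sensors Stim1 and Stim2 and the channel genes Orai1 and Orai2 differed by less than 1 log2 unit between regions, with the largest difference, 0.98 ± 0.11, for Stim1 in CB over PFC. Stim2 held the largest part of their level per kilobase, from 33.9% in CB to 45.5% in PFC. Micu3, a neuronal regulator of the mitochondrial uniporter, had 62.0%, 55.2% and 58.9% of the level of the pair in CB, STR and PFC. It and Mcu, the pore, were higher in CB than in STR by 0.82 ± 0.12 and 0.42 ± 0.12.

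In the KI striatum, 2 of the 43 tested members were called, both lower than in WT, where 0.582% of all tested genes were called and 0.19% were called lower. Cacnb3, the β3 subunit (ENSMUSG00000003352, chr15:98630840-98644529 in GRCm38, plus strand), was at 191.0, 172.8 and 210.2 CPM in WT STR and at 127.9, 150.8 and 137.7 CPM in KI STR. All 3 KI libraries lay below all 3 WT libraries. It fell by 0.46 ± 0.09 (SE) on the log2 scale (adjusted p = 0.0209). Cacna2d3, the α2δ gene that leads in this region (ENSMUSG00000021991, chr14:28904943-29721864, minus strand), was at 552.7, 592.9 and 615.2 CPM in WT and 327.7, 433.5 and 380.6 CPM in KI STR. Its groups did not overlap either, and it fell by 0.62 ± 0.13 (adjusted p = 0.0317). Its share of the α2δ level per kilobase was 87.1% ± 0.2 (SD, n = 3) in WT and 81.4% ± 2.8 in KI STR.

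Both calls depended on the libraries and on the model. In fits that left out 1 library each, STR WT 3, STR KI 1 or STR KI 3 took away both calls (0 members), STR WT 1 left Ryr1 alone, STR WT 2 left Cacnb3 alone, and STR KI 2 gave 4 calls (Cacnb3, Cacna2d3, Ryr1 and Atp2b1). With STR fitted alone no member was called, with a covariate for sex Cacnb3 alone was (Cacna2d3, adjusted p = 0.0599), and with DESeq2 in place of edgeR 4 were. Without CB WT 1, CB KI 3 and PFC WT 3 the same 2 were called (Cacnb3, adjusted p = 0.0299; Cacna2d3, adjusted p = 0.0357).

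Next in order of p stood Ryr1, Atp2b1 and Cacnb2, none of which passed the threshold. Ryr1 was at 21.84, 37.09 and 32.37 CPM in WT and 10.27, 17.96 and 15.8 CPM in KI STR, again without overlap (log2 fold change -1.05 ± 0.24, adjusted p = 0.0539). Atp2b1 was at 1380, 1388 and 1250 CPM in WT and 881.3, 1137 and 934.5 CPM in KI STR (-0.45 ± 0.11, adjusted p = 0.0851). Cacnb2 was at 126.3, 130.7 and 103.8 against 91.2, 97.7 and 97.6 CPM (-0.33 ± 0.10, adjusted p = 0.216). Like Cacna2d3, all 3 were higher in WT STR than in WT CB and WT PFC, whereas Cacnb3 was highest in WT PFC. In all, 11 members had every KI STR library below every WT STR library, where 8.46% of all genes did, and 1 (Itpr2) had every KI library above (5.65% of all genes). Log2 fold changes were below 0 for 30 of the 43 (51.5% of all genes), with a median of -0.17 over the members and -0.01 over all tested genes, and for all 4 β subunit genes (median -0.33). An unadjusted p under 0.05 was reached by 8 members, all lower (4.76% of all genes were lower at that p).

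**Figure D3:**
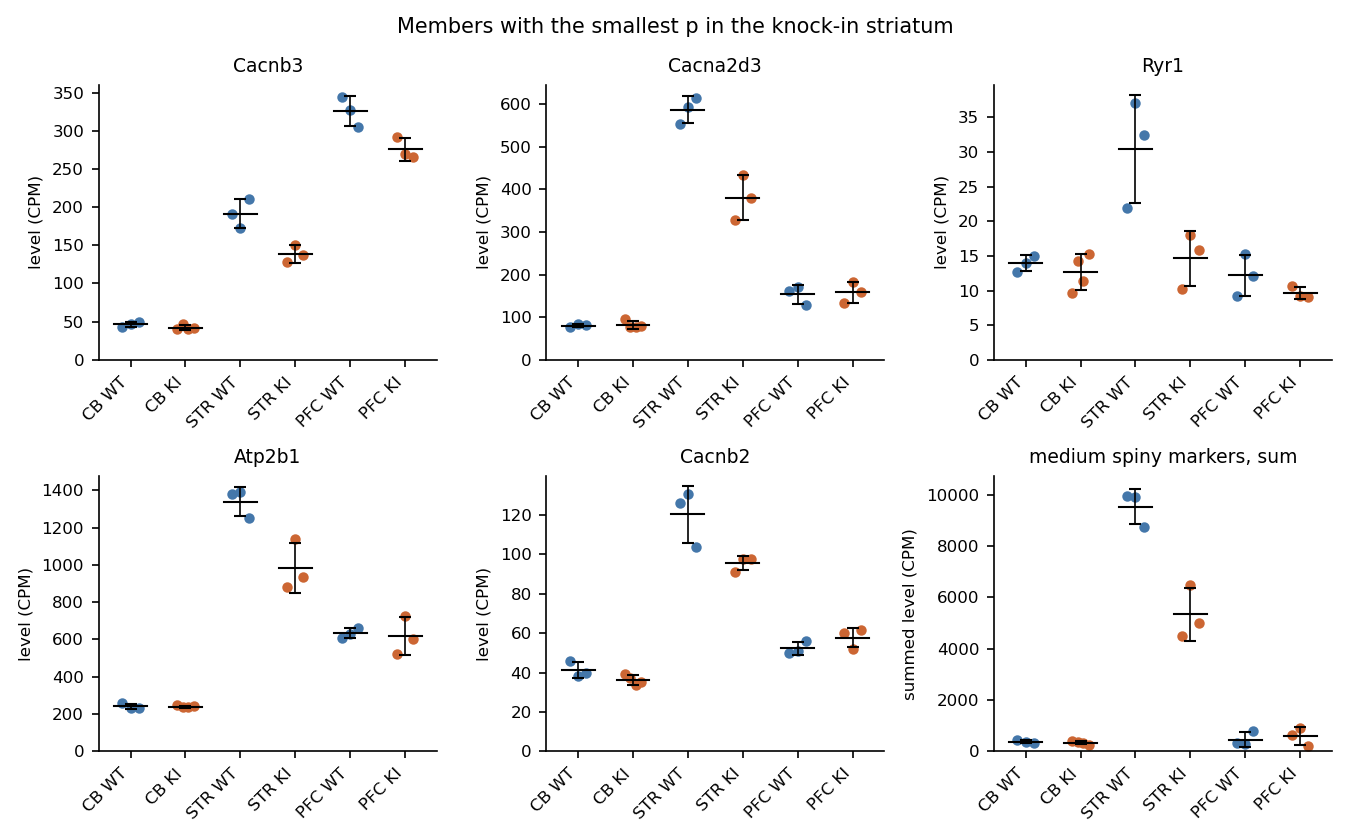
Level in CPM of Cacnb3, Cacna2d3, Ryr1, Atp2b1 and Cacnb2, and the summed level of 8 medium spiny neuron markers, in each library (points; blue WT, orange KI; black line and bar, mean ± SD). In STR the KI points lie below the WT points in all 6 panels, and only the first and second genes, Cacnb3 and Cacna2d3, passed the test.

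Most markers of the principal neurons of the striatum also had lower levels in KI STR. A list of 8 markers of medium spiny neurons (Drd1, Drd2, Adora2a, Penk, Tac1, Ppp1r1b, Pde10a and Rgs9) summed to 9954, 9917 and 8744 CPM in the WT STR libraries and to 4511, 6488 and 5007 CPM in the KI STR libraries. Of these, 7 had log2 fold changes below 0 and no overlap between groups, the median over the 8 was -0.69, and none was called (Pde10a, adjusted p = 0.0542). Their part in the lower levels of Cacnb3 and Cacna2d3 was not tested.

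The promoters of the 4 striatal genes with the smallest p are shown because every KI STR library had less of their RNA than every WT STR library. Each line gives 1 window, the 250 bases before a RefSeq transcript start (GRCm38.p6), read 5′ to 3′ on the strand of the gene, with the GC box GGGCGG or its reverse complement CCGCCC in capitals. The coordinates are chr15:98634517-98634766 (plus strand) for Cacnb3, chr14:29721865-29722114 (minus) for Cacna2d3, chr7:29125152-29125401 (minus) for Ryr1 and chr10:98914392-98914641 (plus) for Atp2b1. Cacnb3 and Atp2b1 each have 1 more window, which is not printed, at chr15:98632078-98632327 and chr10:98914902-98915151.
Cacnb3: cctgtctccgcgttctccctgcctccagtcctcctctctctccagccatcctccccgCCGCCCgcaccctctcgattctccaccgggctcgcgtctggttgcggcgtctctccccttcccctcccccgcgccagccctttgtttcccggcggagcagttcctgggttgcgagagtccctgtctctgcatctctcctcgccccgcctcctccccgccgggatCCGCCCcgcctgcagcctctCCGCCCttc
Cacna2d3: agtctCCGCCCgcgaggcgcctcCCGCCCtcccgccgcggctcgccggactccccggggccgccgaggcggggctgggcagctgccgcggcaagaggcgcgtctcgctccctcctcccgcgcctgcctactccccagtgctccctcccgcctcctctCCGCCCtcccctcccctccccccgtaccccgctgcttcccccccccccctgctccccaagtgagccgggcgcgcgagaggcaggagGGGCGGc
Ryr1: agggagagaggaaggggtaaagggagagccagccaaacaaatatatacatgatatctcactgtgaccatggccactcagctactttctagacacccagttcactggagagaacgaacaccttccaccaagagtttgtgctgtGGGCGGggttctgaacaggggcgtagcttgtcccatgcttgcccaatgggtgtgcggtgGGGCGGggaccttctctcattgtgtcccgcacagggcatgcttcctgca
Atp2b1: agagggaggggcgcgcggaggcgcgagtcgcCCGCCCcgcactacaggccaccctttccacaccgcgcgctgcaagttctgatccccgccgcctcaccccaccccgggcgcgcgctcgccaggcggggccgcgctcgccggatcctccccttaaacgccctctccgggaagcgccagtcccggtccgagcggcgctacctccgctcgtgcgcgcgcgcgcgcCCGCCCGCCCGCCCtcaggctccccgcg
The printed windows held 3, 4, 2 and 4 matches to the GC box, counted on both strands with overlaps. The other window of Cacnb3, nearer the annotated gene start (1488 bp from it, against 3927 bp), held 0, and that of Atp2b1 held 3. None of the 6 held the TATA box letters TATAAA or TTTATA. Windows were at hand for 36 of the 44 members, 50 in all. A GC box stood in 26 of the 50 (52.0%), against 32.7% of the 32851 windows of all genes, and the TATA box letters in 2 (4.0%), against 12.4%. A match describes letters in a window and not a bound site.

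In the KI cerebellum no member was called in either direction by edgeR or by DESeq2, where 0.831% of all tested genes were called by edgeR. In all, 4 members reached an unadjusted p under 0.05, all lower (5.26% of all genes were lower at that p). Cacna1a had the smallest p. It was at 136.2, 167.8 and 170.2 CPM in WT and at 95.0, 113.2, 118.5 and 146.5 CPM in KI CB, so that only the highest KI library lay within the WT range (log2 fold change -0.42 ± 0.15, adjusted p = 0.274). Cacna1a remained the leading high-voltage pore gene in KI CB, with 57.1% ± 2.3 (SD, n = 4) of their level per kilobase, against 60.6% ± 0.4 in WT. The log2 fold change was -0.51 (adjusted p = 0.194) without CB WT 1, CB KI 3 and PFC WT 3.

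The pumps of the cerebellum came next. Atp2b2, abundant in Purkinje cells, was at 1220, 1278 and 1189 CPM in WT and at 963.5, 1010, 884.3 and 967.2 CPM in KI CB, with no overlap (-0.36 ± 0.14, adjusted p = 0.38). Atp2a2 was at 1057, 889.8 and 865.8 CPM in WT and 900.8, 735.7, 607.6 and 738.3 CPM in KI, which overlapped through CB KI 1 (-0.33 ± 0.14, adjusted p = 0.399). Atp2a3, the pump gene that marked CB in WT mice, was at 263.2, 276.0 and 249.5 CPM in WT and 248.6, 216.0, 179.8 and 163.5 CPM in KI CB (-0.38 ± 0.20, adjusted p = 0.556), again with no overlap.

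Of the other members with the smallest p in CB, Cacna1d (-0.25 ± 0.11, adjusted p = 0.465) and Cacna2d2 (-0.23 ± 0.12, adjusted p = 0.57) also had every KI library below every WT library. Cacnb2 (-0.19 ± 0.09), Slc8a2 (-0.40 ± 0.20) and Cacna1i (-0.36 ± 0.18) overlapped between groups, as did Slc24a4, the only one of the 10 above 0 (0.77 ± 0.44, from 1.46 to 4.50 CPM in WT and 1.81 to 7.88 CPM in KI). Cacna1g, chosen here after its values were seen, was at 69.9, 88.3 and 76.9 CPM in WT and 53.3 to 60.1 CPM in KI CB, with no overlap (-0.46 ± 0.28, adjusted p = 0.637). In all, 6 members had no overlap with KI lower, where 6.47% of all genes did, and none with KI higher (5.82%). Log2 fold changes were below 0 for 28 of the 43 members (48.2% of all genes) and for all 5 high-voltage pore genes (median -0.24), with a median of -0.06 over the members and 0.01 over all tested genes.

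With CB fitted alone, 2 members were called, Atp2b2 (-0.36, adjusted p = 0.0446) and Cacna1g (-0.46, adjusted p = 0.0401). The 11 Purkinje cell markers summed to between 7985 and 8396 CPM in WT CB and between 4881 and 6957 CPM in KI CB. All 11 had log2 fold changes below 0 (median -0.50), 10 had no overlap, and 2 were called (Pcp2 and Gng13). The 10 microglia markers summed to between 158.0 and 162.8 CPM in WT and between 235.2 and 319.2 CPM in KI CB, with 7 called higher, and 1 of 11 granule cell markers, Grm4, was called lower. The part of these shifts in the values of the calcium genes was not tested.

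**Figure D4:**
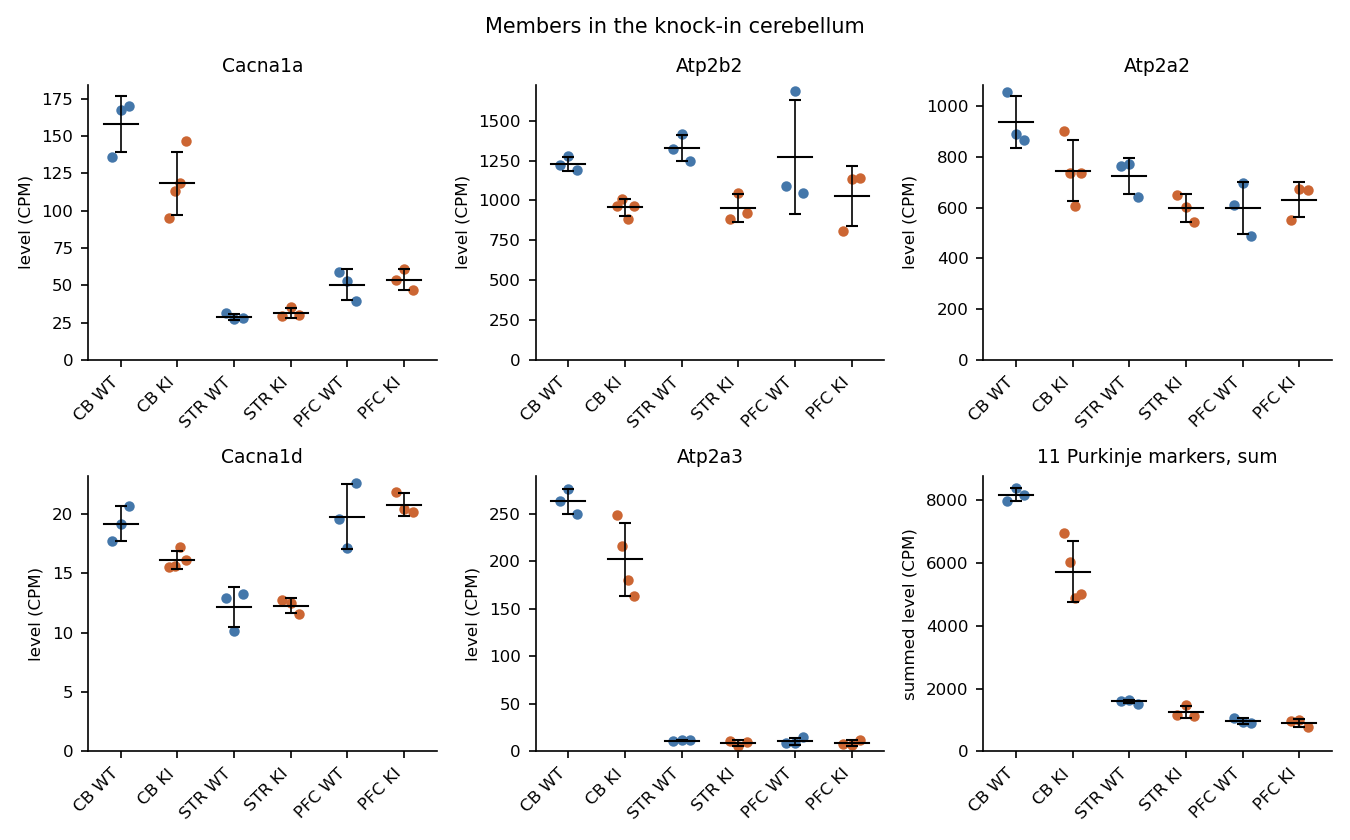
Level in CPM of Cacna1a, Atp2b2, Atp2a2, Cacna1d and Atp2a3, and the summed level of 11 Purkinje cell markers, in each library (points; blue WT, orange KI; black line and bar, mean ± SD). In CB the KI means lie below the WT means in every panel, and none of the 5 genes passed the test.

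In the KI prefrontal cortex no member was called by edgeR or by DESeq2, where 0.107% of all tested genes were called by edgeR, and 2 members reached an unadjusted p under 0.05, both lower (3.4% of all genes were lower at that p). Cacnb3 had the smallest p, as it did in STR. It was at 344.6, 326.9 and 305.0 CPM in WT and 292.5, 269.4 and 265.2 CPM in KI PFC, with no overlap (-0.24 ± 0.09, adjusted p = 0.712). In STR and PFC every KI library thus had less Cacnb3 RNA than every WT library of its region, while in CB the groups overlapped (42.5, 47.4 and 49.7 CPM in WT; at most 46.6 CPM in KI).

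Cacng5, a TARP, was at 15.4, 8.82 and 89.2 CPM in WT PFC and 21.2, 12.3 and 11.4 CPM in KI PFC (-1.33 ± 0.59, adjusted p = 0.828). The 89.2 CPM came from PFC WT 3, the library with olfactory bulb RNA, and without that library the log2 fold change was 0.32. Atp2b2 (-0.31 ± 0.15, adjusted p = 0.868), Ryr3 (0.43 ± 0.23, adjusted p = 0.893) and Ryr2 (-0.21 ± 0.13, adjusted p = 0.912) followed. In PFC 17 of the 43 members had log2 fold changes below 0 (49.5% of all genes), with a median of 0.04 against 0.00 for all genes. This direction depended on the fit. The count below 0 was 22 with a covariate for sex (median -0.01). It ran from 15 without PFC KI 3 (median 0.07) to 26 without PFC KI 2 (median -0.04).

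**Figure D5:**
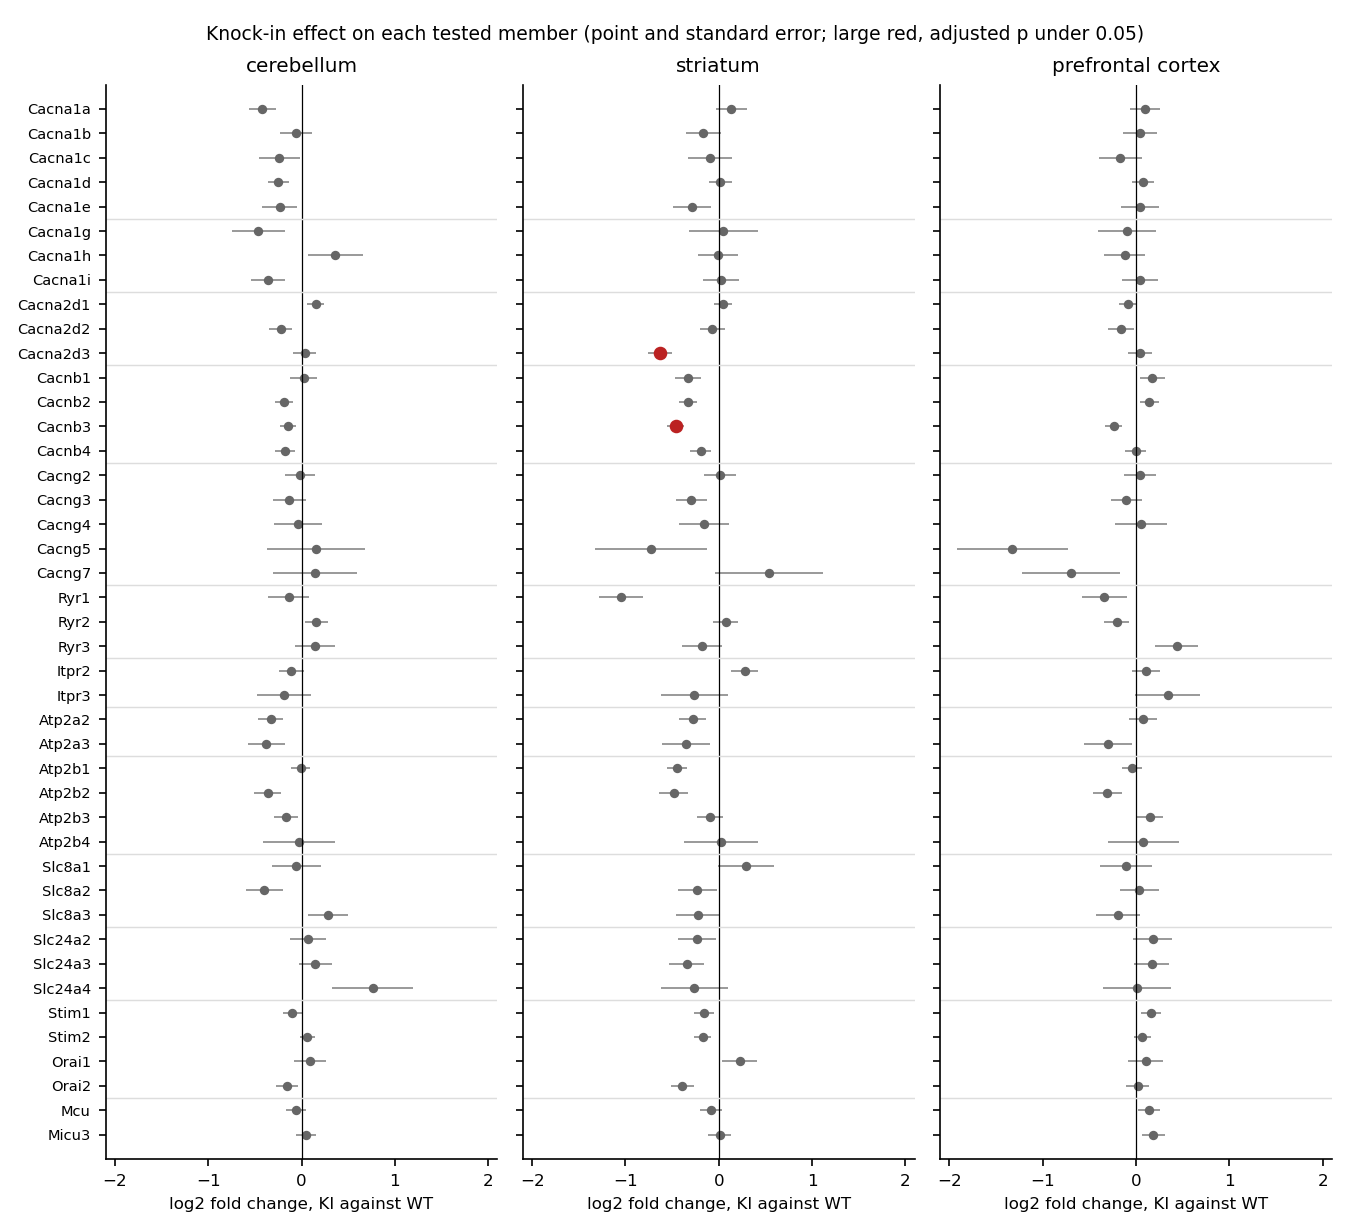
Log2 fold change, KI against WT, of the 43 tested members (points, with standard errors) in CB, STR and PFC, from 1 edgeR fit, with grey lines between subfamilies. Cacna2d3 and Cacnb3 in STR are the large red points, the calls with an adjusted p under 0.05, and most points of CB (28) and STR (30) lie left of 0.

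Whether the KI effect differed between regions was tested directly. No member was called in any of the 3 comparisons by edgeR or DESeq2, where 0.0119% (CB against STR), 0.0178% (CB against PFC) and 0% (STR against PFC) of all genes were called by edgeR. At an unadjusted p under 0.05 there were 4 members with a higher and 1 with a lower log2 fold change in CB than in STR (3.72% and 2.97% of all genes), 2 with a lower one in CB than in PFC (2.65%), and 6 with a lower one in STR than in PFC (2.5%). The smallest p belonged to Cacna2d3, whose log2 fold change was 0.03 in CB, -0.62 in STR and 0.04 in PFC. It differed by 0.66 ± 0.18 between CB and STR (adjusted p = 0.319) and by -0.67 ± 0.18 between STR and PFC (adjusted p = 0.942). For Cacna1a the values were -0.42, 0.13 and 0.10, and the difference between CB and STR was -0.55 ± 0.22 (adjusted p = 0.628). The lower level of Cacna2d3 in STR and the values of Cacna1a in CB were therefore not shown to be particular to a region.

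The neighbouring genes of calcium signalling gave a few calls of their own. From a list of 55 such genes, 53 were tested, and 2 were called in KI CB, both lower (0.315% of all genes were called lower). Plcb3, a phospholipase that makes IP3, was at 65.7, 90.2 and 78.0 CPM in WT and 38.4 to 46.4 CPM in KI CB (-0.89 ± 0.12, adjusted p = 0.000418). Inpp5a, which degrades IP3, was at 464.7 to 485.0 CPM in WT and 277.7 to 418.3 CPM in KI CB (-0.51 ± 0.11, adjusted p = 0.0275). For both genes every KI CB library lay below every WT CB library. Inpp5a missed the threshold when any of CB WT 1, 2 or 3 or CB KI 2, 3 or 4 was left out, which left Plcb3 as 1 called lower. Nor was Inpp5a called with CB fitted alone or with the replicate block, whereas DESeq2 called it (adjusted p = 0.001). Without CB KI 3, or without CB WT 1, CB KI 3 and PFC WT 3 together, Necab1 was called higher (0.96 and 1.09, adjusted p = 0.0103 and 0.0151, a gene picked after its values were seen). Itpr1, the main IP3 receptor of Purkinje cells, was at 822.7 to 873.7 CPM in WT and 533.4 to 758.2 CPM in KI CB (-0.44 ± 0.15, adjusted p = 0.274). Itpr1 and Calb1 stand both on this list and among the 11 Purkinje cell markers, so the 2 lists are not independent. None of the 53 was called in STR or PFC by the main edgeR fit or by DESeq2. With the replicate block, Hpca was called lower in STR (-0.45, adjusted p = 0.0449) and higher in CB (0.43, adjusted p = 0.0434). At an unadjusted p under 0.05, 2 of the 53 were higher and 6 lower in CB (4.86% and 5.26% of all genes), 1 higher and 8 lower in STR (3.37% and 4.76%), and 3 higher and 2 lower in PFC (2.53% and 3.4%). Every KI library lay below every WT library for 7 of the 53 in CB and for 10 in STR (6.47% and 8.46% of all genes). Log2 fold changes were below 0 for 32 of the 53 in CB, 26 in STR and 30 in PFC, with medians of -0.06, 0.01 and -0.03. For the channel, pump and exchanger genes the medians were -0.06, -0.17 and 0.04, and the difference between the lists was not tested.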

How the data were processed

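Total RNA of 3 brain regions of KI and WT mice was made into libraries with SMART-Seq v4 and Nextera XT kits, which do not mark strand. The deposited raw counts per Ensembl gene were used; the submitters' processing notes name bcl2fastq 2.17.1.14, STAR 2.5.2b, HTSeq, DESeq2 1.10.1 and GRCm38.p3. The authors also deposited signal values, counts divided by 1 size factor per library, which served only to check levels. Groups came from the genotype and tissue labels. Counts were tested with edgeR 4.0.16 (R 4.3.3; TMM scaling, filterByExpr, quasi-likelihood F-test) with the 6 groups and all 19 libraries fitted together (13 residual degrees of freedom). Benjamini-Hochberg adjustment ran over all 16841 genes tested, and a gene was called at an adjusted p under 0.05. The study's own genotype test, made from reads, was not repeated. A standard error is the log2 fold change divided by the root of F. CPM used TMM-scaled totals, and exon lengths and names came from GENCODE M21. The length of a gene was that of all its annotated exons merged over all transcripts. Levels and shares per kilobase depend on this choice. The fitting scripts were tested on simulated data.

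Named were all called members, the 10 (CB) or 5 (STR, PFC) with the smallest p, and in WT mice the 5 highest of each region and the leader of each subfamily; others are named as illustration. The members and lists were chosen with earlier results of these data known. Within a region, libraries of WT and KI with the same number did not deviate together (correlation between -0.157 and 0.328, 9 pairs). Same-numbered STR and PFC libraries of a genotype did in all 6 pairs (0.157 to 0.355), and were of the same inferred sex in 6 of 6, whereas CB libraries were in 6 of 12 comparisons; with the number as a block, Cacnb1 passed the test between WT STR and WT PFC (adjusted p = 0.0446, against 0.069 without it). The study's methods give 3 to 4 mice per genotype, so regions may share mice, but the labels tie no library to a mouse, and p-values measure the spread between these samples. Alternatives were DESeq2 1.42.0, its size factors, other count filters, each region alone, a replicate block, a covariate for sex, and leaving out libraries. Some genes of the marker and calcium signalling lists are not reported here.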

Additional observations from a re-analysis of the deposited data

Results flagged for a closer look

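Among the 43 tested members, each checked in the 4 CB KI libraries (the only group large enough), 1 had a library far from the others. Cacna2d3 was at 96.31 CPM in CB KI 1, against 76.38 to 78.65 CPM in the other 3 CB KI libraries, a gap of 0.886 of the group's range. By chance about 1 in 20 such groups would be marked. The WT CB libraries lay between 77.2 and 83.1 CPM, and Cacna2d3 was not called in CB (log2 fold change 0.03 ± 0.12, adjusted p = 0.97).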

How the results depend on the processing

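Calls in the KI striatum moved most. Against 2 members called lower, DESeq2 gave 4 (adding Ryr1 and Atp2b1), STR fitted alone 0, a covariate for sex 1 (Cacnb3) and a replicate block within regions 1 (Ryr1, adjusted p = 0.0339); leaving out 1 library each gave 0 to 4. In the KI cerebellum, against 0, CB fitted alone gave 2 and the replicate block 1 (Cacna1a, -0.54, adjusted p = 0.0408). The same-numbered KI and WT libraries share only a number, so a call under the block says nothing of its size. Filters of 1 count in all, or of 10 in every library, added Ryr1 in STR (adjusted p = 0.0468 and 0.0461). Cacng5 in PFC ranged from -1.793 to 0.318 with 1 library left out, turning to 0.318 without PFC WT 3, and was 0.317 without that library, CB WT 1 and CB KI 3, an alternative chosen after seeing the data, under which Slc8a1 in WT CB against WT PFC turned to 0.086. Slc24a4 in WT STR against WT PFC missed the threshold without PFC WT 3 (adjusted p = 0.0546). All other counts of called members stayed within 1.5 times the main count under every alternative run. The causes were not tested. Few libraries and low counts (Cacng7, Cacng8) limit what could be seen, and 17 members share exon bases with other genes.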
